A study of Mus musculus with 48 samples.

Results

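RNA of the prefrontal cortex (PFC) was compared with RNA of the habenula (HAB) in the same series of male C57BL/6 mice, across the day. All 12 PFC arrays and all 12 HAB arrays were used, 24 of the 48 arrays of the series; the other 24 were of striatum (STR) and of substantia nigra with ventral tegmental area (SN/VTA), and serve here only to place a level. Both tissues had 2 arrays at each of 6 Zeitgeber times (ZT, hours after lights on): ZT 3, 7 and 11 in the light and ZT 15, 19 and 23 in the dark of a day of 12 h light and 12 h dark. The labels name no transgene, treatment or age. Tissue was cut from both sides of coronal slices of 1 mm, and each array carried the pooled RNA of 3 mice killed at one time. Replicate 1 came from the first 24-h cycle of killing and replicate 2 from the second. The PFC array was paired with the HAB array of the same time and replicate, which gave 12 differences per gene, written throughout as PFC minus HAB on the log2 scale.

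The PFC is a layered area of the cerebral cortex, built of glutamatergic projection neurons and of GABAergic interneurons that derive from the ventral forebrain. The habenula is a small nucleus of the epithalamus, above the thalamus and under the choroid plexus of the third ventricle. Its medial part holds cholinergic and tachykinin neurons that project to the interpeduncular nucleus and are rich in nicotinic acetylcholine receptors; its lateral part holds glutamatergic neurons that project to the midbrain and act on dopamine and serotonin neurons.

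The values were log2 levels per gene from Affymetrix Mouse Gene 2.0 ST arrays, whose probes lie along the whole transcript. Array medians ran from 5.96 to 6.03 over the 24 arrays, and replicates of one time correlated across genes with r from 0.988 to 0.992 in PFC and from 0.982 to 0.991 in HAB. No detection calls were used, so a level near the lowest ones may be background and a fold change against it is then understated. In pooled tissue, fewer cells of a type and less RNA per cell cannot be told apart. Nothing says how the mice of the PFC pools and those of the HAB pools correspond, and p-values measure the spread between pools.

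The 2 tissues differed in a large share of the genes. A gene was called at a Benjamini-Hochberg adjusted p under 0.05 in limma and a difference of at least 1, which is 2-fold. Of 17274 genes tested, 429 (2.48%) were higher in PFC and 553 (3.20%) were higher in HAB, together 5.68%. Without the fold limit, 70.7% of the genes passed the adjusted p. The median difference over all genes was -0.02. The difference had the same sign in all 12 pairs for 428 of the genes higher in PFC and for 547 of those higher in HAB. The arrays of the 2 tissues did not overlap for 425 and 532 of them, against 30.3% of all genes tested. Differences of 4-fold or more were found for 57 and 72 genes, and of 8-fold or more for 17 and 18.

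**Figure D1:**
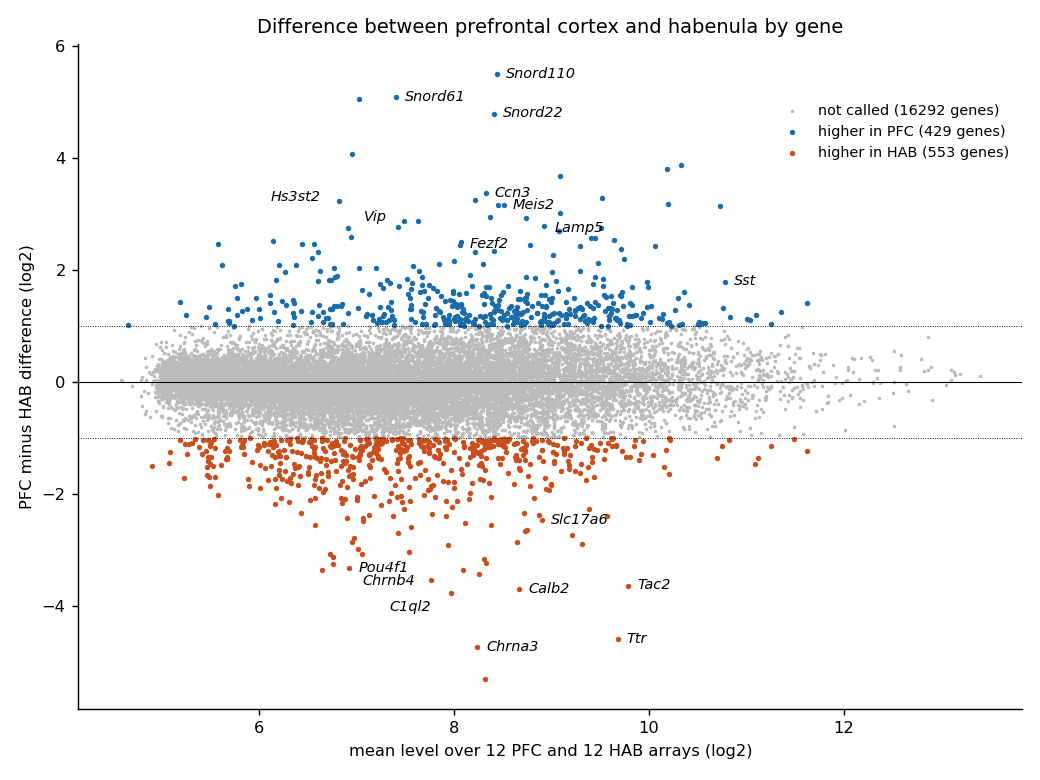
Each point is 1 of 17274 genes, with its mean level over the 24 arrays (log2) on the x axis and its PFC minus HAB difference (log2) on the y axis; dotted lines mark a 2-fold difference. The 429 genes higher in PFC are blue and the 553 higher in HAB orange, and Chrna3 at -4.74 and Ttr at -4.60 are the lowest of the labelled genes, while short nucleolar RNAs such as Snord110 at 5.49 lie at the top.

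Both directions were read against the other 2 tissues. Of the 429 genes higher in PFC, 395 had their highest mean of the 4 tissues in PFC. Of the 553 genes higher in HAB, 301 had their highest mean in HAB, and 485 had their lowest mean in PFC. The SN/VTA mean lay nearer to HAB than to PFC for 377 of the 553 and the STR mean for 273. For the 429, the SN/VTA mean lay nearer to PFC for 64 and the STR mean for 91. All these genes were chosen for their difference between PFC and HAB, which favours such ranks, and shares over all genes were not counted.

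Among named genes, the 12 largest differences in favour of PFC were in Ccn3, Hs3st2, Meis2, ND6, Vip, Bmp3, Lamp5, Rxfp1, Serpini1, Atp2b4, Gda and Vxn, from 3.37 down to 2.53. Ccn3 encodes a secreted matricellular protein. Its level ran from 9.83 to 10.23 with a median of 9.996 on the PFC arrays and from 5.74 to 7.45 with a median of 6.62 on the HAB arrays. The 2 sets of arrays lay well apart, with HAB the more scattered. The difference was 3.37 ± 0.12 (SE), 10.3-fold, limma adjusted p = 1.97e-09, and the STR and SN/VTA means of 6.74 and 6.89 were close to the HAB mean of 6.64. Hs3st2, which encodes a heparan sulfate sulfotransferase, ran from 8.24 to 8.60 with a median of 8.45 on the PFC arrays and from 4.60 to 5.85 with a median of 5.19 on the HAB arrays. No array overlapped, and the difference was 3.23 ± 0.09 (SE), 9.37-fold, limma adjusted p = 2.68e-10. Meis2, a homeobox transcription factor, was 3.16 ± 0.10 (SE) higher in PFC than in HAB. Its mean in STR of 11.04 was above that in PFC of 10.09. ND6, a subunit of respiratory complex I encoded by the mitochondrial genome, differed by 3.003 ± 0.06 (SE); its SN/VTA mean of 6.93 was below its HAB mean of 7.59.

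The rest of these PFC genes included signalling molecules and enzymes of cortical neurons. Bmp3, a ligand of the bone morphogenetic protein family, ran from 8.64 to 9.39 with a median of 9.07 on the PFC arrays and from 5.89 to 6.42 with a median of 6.21 on the HAB arrays. The difference of 2.86 ± 0.09 (SE) came with no overlap, and STR and SN/VTA, at 6.29 and 6.26, were at the HAB level. Rxfp1, the receptor of relaxin, ran from 7.93 to 8.43 with a median of 8.31 on the PFC arrays and from 4.86 to 6.13 with a median of 5.55 on the HAB arrays. Its difference was 2.75 ± 0.08 (SE). Serpini1, which encodes neuroserpin, an inhibitor of tissue plasminogen activator, differed by 2.74. Atp2b4, a calcium pump of the plasma membrane, varied little between PFC arrays (SD 0.04) and differed by 2.69. Gda, a guanine deaminase that also organises dendrites, differed by 2.56, and both Atp2b4 and Gda had STR means, 9.46 and 9.27, between those of PFC and HAB. Vxn, the vexin gene of neuronal differentiation, differed by 2.53 ± 0.10 (SE).

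Genes of cortical layers were higher in PFC in part. Of 12 measured markers of upper layers, 3 were called higher in PFC and 1 higher in HAB, with a list median of 0.41. Of 15 markers of deep layers, 3 were higher in PFC and 0 higher in HAB, with a median of 0.50. Lamp5, a membrane protein of upper layer neurons and of a class of interneurons, ran from 10.16 to 10.49 with a median of 10.31 on the PFC arrays and from 6.70 to 8.34 with a median of 7.52 on the HAB arrays. Its lowest PFC array lay above its highest HAB array, and the difference was 2.77 ± 0.12 (SE), 6.84-fold, limma adjusted p = 5.46e-09. Fezf2, the transcription factor that specifies subcortical projection neurons, ran from 9.11 to 9.50 with a median of 9.28 on the PFC arrays and from 5.94 to 7.40 with a median of 6.84 on the HAB arrays. The difference of 2.45 ± 0.09 (SE), 5.46-fold, limma adjusted p = 1.76e-09 again left no overlap. Tbr1, a T-box factor of deep layer neurons, ran from 8.20 to 8.97 with a median of 8.46 on the PFC arrays and from 6.44 to 7.26 with a median of 6.90 on the HAB arrays. That gave a difference of 1.61 ± 0.10 (SE), 3.06-fold, limma adjusted p = 1.13e-07. The other calls in these lists were Rorb at 1.06, Otof at 1.03 and Cplx3 at 1.13, and Mdga1, a cell adhesion gene of upper layers, went the other way at -1.14.

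General markers of pallial glutamatergic neurons separated the tissues much less. Mef2c, a transcription factor of neuronal differentiation, was the only 1 of 9 called, at 1.69 ± 0.05 (SE), and the median of the list was 0.37. Slc17a7, a vesicular glutamate transporter used in cortex, differed by 0.45. Camk2a, the kinase subunit used to mark forebrain projection neurons, differed by -0.01 with an adjusted limma p of 0.913. The HAB arrays carried transcripts of this list too, at a lower list mean. It ran from 9.50 to 9.69 over the PFC arrays and from 8.76 to 9.35 over the HAB arrays. Which cells of the HAB pools gave these transcripts was not tested. Markers of hippocampus, which lies above the habenula and is itself pallial, were high on the HAB arrays and are described with the neighbouring tissues. Their part in these values was not tested.

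Markers of cortical interneurons leaned to PFC, with 7 of 22 called higher there, 0 called higher in HAB and a median of 0.56. Vip encodes the neuropeptide of a class of interneurons that inhibit other interneurons. It ran from 8.68 to 9.19 with a median of 8.92 on the PFC arrays and from 5.79 to 6.37 with a median of 6.10 on the HAB arrays. The groups did not overlap, and the difference was 2.86 ± 0.05 (SE), 7.27-fold, limma adjusted p = 9.54e-12; the means of STR and SN/VTA, 5.97 and 6.12, were at the HAB level. Sst, the somatostatin gene of another class, ran from 11.55 to 11.82 with a median of 11.69 on the PFC arrays and from 9.36 to 10.48 with a median of 9.93 on the HAB arrays. It differed by 1.79 ± 0.06 (SE), 3.45-fold, limma adjusted p = 1.03e-09. Satb1, a chromatin organiser of these neurons, differed by 1.38, while Pvalb, the calcium buffer of fast-spiking cells, was at -0.18 and Npy at 0.83, both under 2-fold. Of the pan-GABAergic genes, Gad2, a GABA-synthesising enzyme, was called at 1.18, whereas Gad1 differed by -0.19 with an adjusted limma p of 0.0655. Over the 5 pairs of low choroid plexus level, described with the neighbouring tissues, 5 of 22 were called: Gad2 stood at 0.88 and Crhbp, which binds corticotropin-releasing hormone, at 0.87, both under 2-fold. Dlx5, a homeobox gene of interneurons called at 1.03, stood at 0.97 without ZT 23 of replicate 1 and at 0.998 without ZT 19 of replicate 2.

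**Figure D2:**
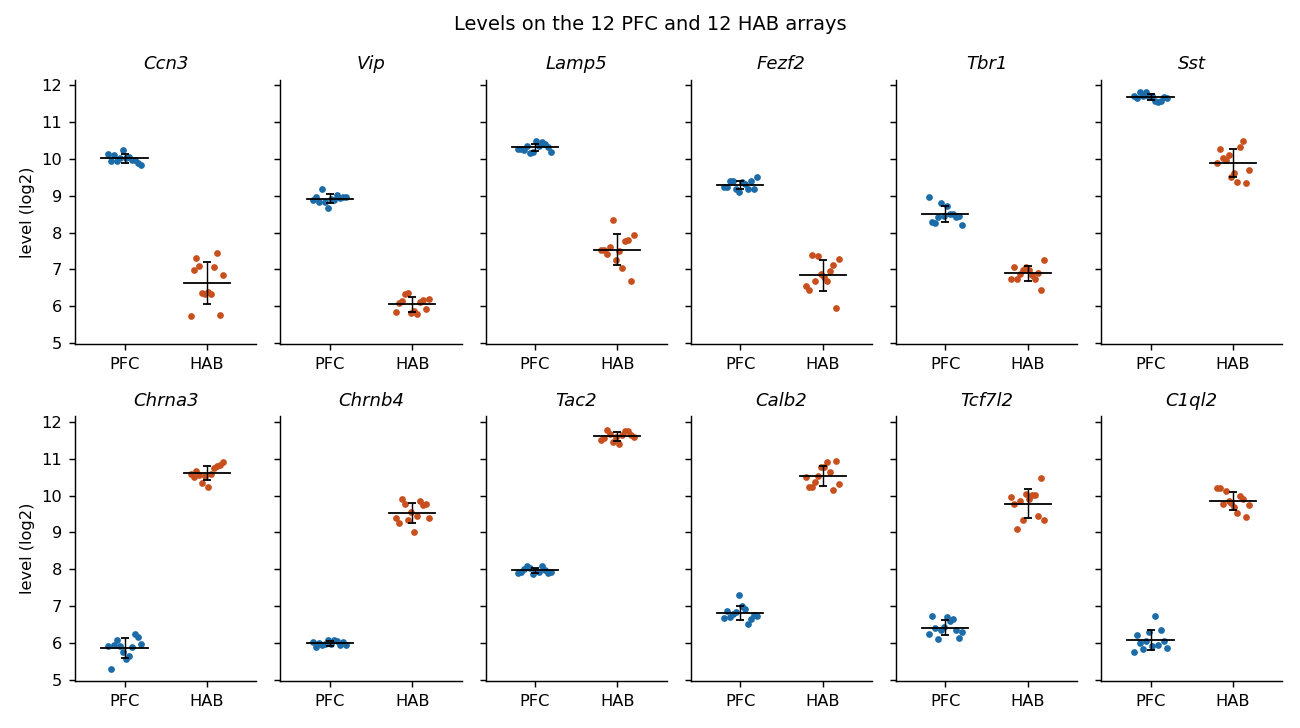
Each panel shows the level (log2) of 1 gene on the 12 PFC arrays (blue) and the 12 HAB arrays (orange), with the mean as a line and the SD as a bar; points are spread sideways only to separate them. The upper 6 genes are higher in PFC and the lower 6 higher in HAB, with no overlap between tissues in any panel, and Ccn3 has the widest HAB spread, from 5.74 to 7.45.

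Among named genes, passing over predicted genes and short RNAs, the 12 largest differences in favour of HAB were in Chrna3, Ttr, C1ql2, Calb2, Tac2, Chrnb4, Prkcd, Tcf7l2, Slitrk6, Pou4f1, Dsp and Cabp7, from -4.74 to -3.23. By the lists, Chrna3, Calb2, Tac2, Chrnb4 and Pou4f1 are markers of habenula neurons, Prkcd and Tcf7l2 of thalamus, C1ql2 and Dsp of hippocampus, and Ttr of choroid plexus; Calb2 is also in the thalamus list. Cabp7, a calcium-binding protein gene in none of the lists, ran from 6.43 to 7.01 with a median of 6.74 on the PFC arrays and from 8.96 to 10.39 with a median of 10.02 on the HAB arrays. The difference was -3.23 ± 0.10 (SE), 9.40-fold, limma adjusted p = 8.30e-10, and its SN/VTA mean of 9.26 was nearer to HAB than to PFC.

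Of all lists, that of the medial habenula had the most genes called higher in HAB, but the lists differ in size. By share the thalamus list, with 9 of 11, was ahead of it. Of the 20 medial habenula markers, all measured, 14 were called higher in HAB and 0 higher in PFC, and the median was -2.13 against -0.02 for all genes. The count was also 14 over the 5 pairs of low choroid plexus level. Chrna3 encodes the nicotinic receptor subunit that pairs with Chrnb4 in this nucleus. It ran from 5.30 to 6.25 with a median of 5.93 on the PFC arrays and from 10.22 to 10.90 with a median of 10.59 on the HAB arrays. The lowest HAB array lay far above the highest PFC array, and the difference was -4.74 ± 0.06 (SE), 26.6-fold, limma adjusted p = 1.69e-12. SN/VTA lay between, at a mean of 8.17, and STR at 6.59. Chrnb4, its partner, ran from 5.89 to 6.09 with a median of 5.996 on the PFC arrays and from 9.01 to 9.89 with a median of 9.51 on the HAB arrays. It differed by -3.54 ± 0.04 (SE), 11.6-fold, limma adjusted p = 1.23e-12 and was low in both STR, at 6.19, and SN/VTA, at 6.40. Tac2, which encodes neurokinin B, ran from 7.88 to 8.09 with a median of 7.94 on the PFC arrays and from 11.41 to 11.79 with a median of 11.61 on the HAB arrays. Its SD was 0.12 over the 12 HAB arrays, and the difference was -3.64 ± 0.04 (SE), 12.5-fold, limma adjusted p = 1.07e-12.

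Other members of this list make up the cholinergic machinery and the transcription factors of these neurons. Chat, which makes acetylcholine, was -1.77, Slc18a3, which loads it into vesicles, -2.15, and Slc5a7, which takes choline back up, -2.44. All 3 were called higher in HAB, and their STR means of 7.28, 7.50 and 8.29 were close to the HAB means of 7.18, 7.38 and 8.28. The striatum holds cholinergic interneurons, so these genes did not single out HAB among the 4 tissues. The transcription factors Pou4f1 and Nhlh2, both used in habenular neurons, were at -3.33 ± 0.15 and -3.14 ± 0.06 (SE). Calb2, the calcium buffer calretinin, was -3.71, but its SN/VTA mean of 10.69 was as high as its HAB mean of 10.53. Tac1, the substance P gene that marks the dorsal medial habenula, did not differ detectably, at 0.04 ± 0.07 (SE), and Il18 was at -0.06. Chrna5, named after its values were seen, was the 1 member that lay clearly on the PFC side, at 0.94, short of 2-fold.

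The promoters of Chrna3, Chrnb4, Tac2 and Vip are shown as examples of genes with large differences in each direction: 3 markers of the medial habenula and 1 of cortical interneurons. Each is the run of 250 bases before the transcription start in RefSeq (mouse build GRCm38.p6), 5′ to 3′ on the strand of the gene. Capitals mark matches, on either strand, to the GC box GGGCGG, the core TGACG of the cyclic AMP response element, the E-box CAGCTG and the TATA box TATAAA; no marked matches overlap. Chrna3 lies at chr9:55026563-55026812 and Chrnb4 at chr9:55048545-55048794, both on the minus strand, and Tac2 at chr10:127724228-127724477 and Vip at chr10:5638968-5639217, both on the plus strand.
Chrna3: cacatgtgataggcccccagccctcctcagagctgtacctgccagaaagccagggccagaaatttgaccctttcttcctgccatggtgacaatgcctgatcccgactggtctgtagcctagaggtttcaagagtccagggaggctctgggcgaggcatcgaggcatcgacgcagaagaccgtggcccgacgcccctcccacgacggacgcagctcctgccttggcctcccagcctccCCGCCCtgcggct
Chrnb4: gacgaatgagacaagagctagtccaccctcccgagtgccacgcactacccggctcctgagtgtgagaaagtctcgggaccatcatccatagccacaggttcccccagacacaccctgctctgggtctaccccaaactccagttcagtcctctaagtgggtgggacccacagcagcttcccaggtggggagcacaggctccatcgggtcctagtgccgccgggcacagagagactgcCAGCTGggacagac
Tac2: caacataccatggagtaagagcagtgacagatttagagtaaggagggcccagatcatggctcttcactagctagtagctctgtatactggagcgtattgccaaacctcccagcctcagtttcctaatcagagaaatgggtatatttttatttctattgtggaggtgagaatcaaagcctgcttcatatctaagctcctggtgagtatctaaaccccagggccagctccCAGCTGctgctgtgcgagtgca
Vip: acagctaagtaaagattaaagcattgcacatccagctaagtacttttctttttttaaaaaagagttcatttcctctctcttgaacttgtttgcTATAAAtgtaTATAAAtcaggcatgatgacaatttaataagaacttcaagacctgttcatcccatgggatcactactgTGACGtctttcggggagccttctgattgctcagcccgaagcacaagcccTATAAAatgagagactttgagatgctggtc

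Both Chrnb4 and Tac2 held 1 E-box CAGCTG, which started 14 and 22 bases before the start site, and 13% of 32851 mouse promoters of this length held one. Chrna3, a neighbour of Chrnb4, held 1 GC box in reverse, 13 bases before the start, a motif found in 32.7% of promoters. Vip held TGACG 79 bases before the start, as did 17.8% of promoters somewhere in the window. It also held TATAAA at 157, 147 and 30 bases before the start, a motif of 12.4% of promoters. The share of G and C was 63.2% for Chrna3, 61.2% for Chrnb4, 47.2% for Tac2 and 38.4% for Vip, against a median of 52.4% over all promoters. These are matches of letters, not sites shown to be bound.

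Markers of the lateral habenula did not lean to one tissue. Of 13 measured, 4 were higher in HAB and 4 higher in PFC, with a median of 0.02. Htr5b, a serotonin receptor gene with a narrow habenular pattern, ran from 5.72 to 6.37 with a median of 6.01 on the PFC arrays and from 8.68 to 9.37 with a median of 9.08 on the HAB arrays. The difference was -3.03 ± 0.05 (SE), 8.18-fold, limma adjusted p = 9.54e-12, and STR and SN/VTA, at 6.37 and 6.15, were close to PFC. Slc17a6, the vesicular glutamate transporter of subcortical neurons, was at -2.47 ± 0.13 (SE), with a higher mean in SN/VTA, 10.80, than in HAB, 10.14. The members higher in PFC were Sst, Gap43 at 1.42, Rorb and Pcdh10, which cortical neurons also express; Pcdh10, at 1.02, stood at 0.997 without the pair of ZT 19 replicate 2 and at 0.998 without that of ZT 23 replicate 2.

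Htr2c, the fourth lateral habenula gene higher in HAB, is also abundant in the choroid plexus. It ran from 8.11 to 8.58 with a median of 8.22 on the PFC arrays and from 8.48 to 10.08 with a median of 9.48 on the HAB arrays, and the tissues overlapped. The difference of -1.06 ± 0.14 (SE), 2.08-fold, limma adjusted p = 4.21e-05 fell under 2-fold without ZT 7, ZT 19 or ZT 23 of replicate 1, at -0.99, -0.98 and -0.92. Over the 5 pairs of low choroid plexus level it was -0.54 with an adjusted limma p of 3.53e-04.

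Receptor genes were counted by family. Of 13 nicotinic subunits, 4 were higher in HAB and 0 in PFC: Chrna3, Chrnb4, Chrnb3 at -2.48 and Chrnb2 at -1.08. The list median was -0.06, and Chrnb2 was at -0.99 over the 5 pairs of low choroid plexus level. Of 5 muscarinic receptors 0 were called, the most different being Chrm5 at -0.93. Among 14 serotonin receptors, Htr1f at 1.40 and Htr2a at 1.20 were higher in PFC, and Htr4 at -2.05, Htr5b and Htr2c were higher in HAB. Drd1 at 1.25 was the only 1 of 5 dopamine receptors called, higher in PFC, and Drd2 was at -0.50. The opioid list split, with the enkephalin precursor Penk at 1.55 and the mu receptor Oprm1 at -1.07; Oprm1 stood at -0.81 over the 5 pairs. Of the tachykinin receptors, Tacr1, the receptor of substance P, was higher in HAB at -1.42, and Tacr3, which binds neurokinin B, was at -0.21, not called.

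Inhibitory receptor subunits differed in make-up. Of 18 GABA-A and glycine receptor subunits, 4 were higher in PFC: Glra3 at 2.03, Glra2 at 1.69, Gabra3 at 1.40 and Gabrg3 at 1.29. The only member higher in HAB was Glra1, at -1.68, the adult glycine receptor subunit of brainstem and spinal cord. The auxiliary subunits of the GABA-B receptor split as well, with 1 of 6 genes of that receptor higher in PFC, Kctd16 at 1.37, and 2 higher in HAB, Kctd8 at -1.16 and Kctd12b at -1.03. A second row for Kctd8 gave -0.02. Kctd12b stood at -0.97 without ZT 19 of replicate 1, at -0.99 after quantile normalization and at -0.998 over the 5 pairs of low choroid plexus level. Of 16 AMPA, kainate and NMDA receptor subunits only Gria3 was called, at 1.37, and of 7 metabotropic glutamate receptors Grm8 at 1.82 and Grm3 at 1.22, all higher in PFC.

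Among ion channels, 6 of 31 voltage-gated potassium channel genes were higher in PFC and 2 higher in HAB. Kcnh7 at 2.26, Kcnv1 at 1.95 and Kcnh3 at 1.57 led the former, and Kcng4 at -2.05 and Kcnh8 at -1.66 were the latter. Kcnq5, also called higher in PFC, was at 1.42, but its other row was at -0.24, and the mean of its rows was not called. Kcnf1 at 1.03 and Kcnh4 at 1.01 lay close to 2-fold. Kcnf1 stood at 0.97 to 0.9996 without ZT 7 of replicate 1 or ZT 3, 19 or 23 of replicate 2. Kcnh4 stood at 0.98 to 0.998 without ZT 7, 19 or 23 of replicate 1 or ZT 3 or 11 of replicate 2. Kcnh3, Kcnh7 and Kcnh8 belong to one channel family, so this family was split between the tissues. Of 6 pacemaker and T-type calcium channel genes, Hcn4 at -1.23 and Cacna1h at -1.08 were higher in HAB. Hcn4 stood at -0.94 over the 5 pairs of low choroid plexus level, and Cacna1h fell under 2-fold over the other 7 pairs. Kcnj10, the potassium channel of glia, was the only 1 of 17 inward rectifier and two-pore channels called, at -1.22.

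Transcription factors that pattern the diencephalon were higher in HAB in 10 of 18 cases and higher in PFC in 0, with a median of -1.35. Tcf7l2, a Wnt effector of thalamus and habenula, ran from 6.11 to 6.73 with a median of 6.39 on the PFC arrays and from 9.10 to 10.49 with a median of 9.88 on the HAB arrays. The difference was -3.36 ± 0.13 (SE), 10.3-fold, limma adjusted p = 2.42e-09, with no overlap, and the SN/VTA mean of 9.71 was close to the HAB mean of 9.77. Lhx9 was at -3.08, Irx2 at -2.21, Lef1 at -1.87, and the zinc finger genes Zic1, Zic2, Zic5 and Zic4 at -2.73, -2.25, -1.59 and -1.51. Gbx2, a factor of thalamic neurons, was at -1.20, but its other row was at -0.51. Otx2, at -3.08, is both a diencephalic and a choroid plexus gene. Over the 5 pairs of low choroid plexus level 9 of the 18 were called. The mean of Otx2 was 8.57 on the 7 HAB arrays of high choroid plexus level and 7.85 on the other 5.

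Markers of tissue next to the habenula were high on the HAB arrays, to different degrees. Of 11 thalamus markers, 9 were called higher in HAB, with a median of -2.06, and the mean level of the list ran from 8.03 to 9.78 over the HAB arrays and from 6.98 to 7.10 over the PFC arrays. Prkcd, a kinase of thalamic relay neurons, ran from 6.17 to 6.90 with a median of 6.58 on the PFC arrays and from 8.53 to 10.89 with a median of 10.18 on the HAB arrays. All HAB arrays were above all PFC arrays, but the HAB arrays were widely scattered. Its difference was -3.44 ± 0.19 (SE), 10.8-fold, limma adjusted p = 3.21e-08. Slitrk6, a thalamic membrane protein gene, had a similar spread in HAB, with an SD of 0.87, and a difference of -3.35. Calb2 and Slc17a6 are in this list and in a habenular one, and Tcf7l2 is a gene of both tissues, so those 3 do not tell thalamus from habenula. Over the 5 pairs of low choroid plexus level 8 of 11 were called, and Ramp3, a receptor partner, called at -1.13, stood at -0.96; without ZT 7 of replicate 2 it was at -0.97. What thalamic tissue adds to the genes called higher in HAB was not tested.

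Hippocampal markers were called higher in HAB in 6 of 9 cases, with a median of -1.75. The mean level of the list ran from 8.40 to 9.07 over the HAB arrays and from 6.77 to 6.92 over the PFC arrays. C1ql2, a synaptic organiser of dentate granule cells, ran from 5.76 to 6.75 with a median of 6.02 on the PFC arrays and from 9.41 to 10.20 with a median of 9.82 on the HAB arrays. The difference was -3.76 ± 0.10 (SE), 13.6-fold, limma adjusted p = 2.15e-10. Dsp at -3.26, Lct at -2.99 and Prox1 at -2.91, all used as dentate gyrus markers, were of like size, and the difference of each was at least as large over the 5 pairs of low choroid plexus level, at -3.44, -3.29 and -2.97. Prox1 and C1ql2 also had SN/VTA means, 8.20 and 8.74, well above PFC, whereas Dsp and Lct did not, at 5.48 and 5.57. What hippocampal tissue adds to the calls was not tested.

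Choroid plexus transcripts split the HAB arrays into 2 sets. The mean level of 13 choroid plexus genes was 8.24 to 8.75 on 7 HAB arrays, 6.61 to 6.96 on 5 HAB arrays and 5.72 to 6.01 on the PFC arrays. The 7 were all 6 arrays of replicate 1 and ZT 15 of replicate 2; the 5 were the other arrays of replicate 2. Ttr, which encodes the thyroid hormone carrier transthyretin, was 13.02 to 13.14 on the 7, 10.14 to 10.76 on the 5 and 6.93 to 8.14 on the PFC arrays. All 12 HAB arrays were thus above all PFC arrays for Ttr, by -4.60 ± 0.33 (SE) over 12 pairs and -3.21 over the 5. Kl, the klotho gene, went from -3.16 to -1.60, and Sostdc1 from -2.40 to -1.31.

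**Figure D3:**
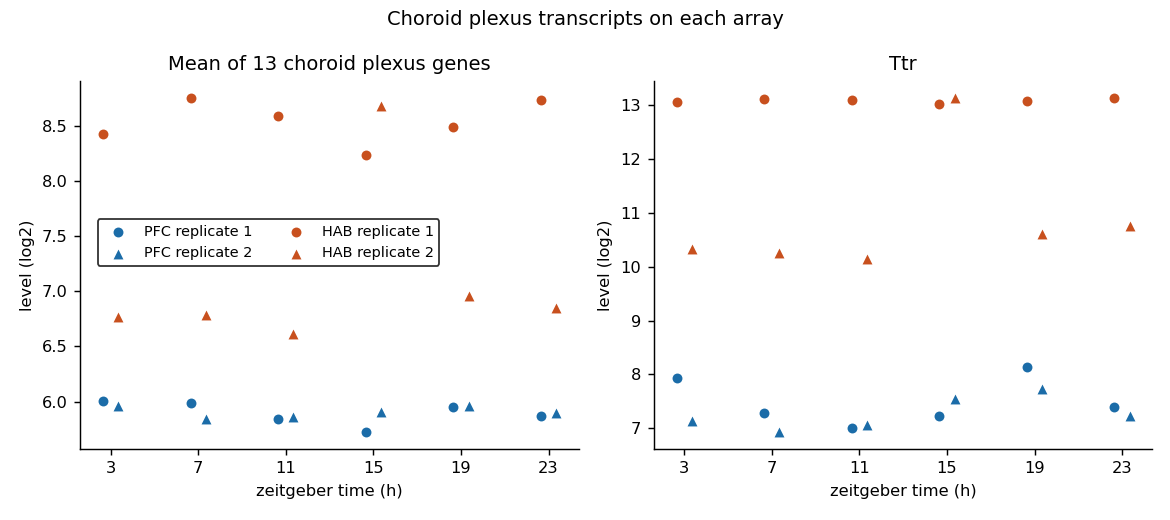
The left panel shows the mean level (log2) of 13 choroid plexus genes and the right panel that of Ttr, on each array by Zeitgeber time (h); circles are replicate 1, triangles replicate 2, PFC is blue and HAB orange. The HAB arrays of replicate 1 and the triangle at ZT 15 lie high, at 8.24 to 8.75 in the left panel, and the other 5 HAB arrays lie between them and PFC.

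Genes were recomputed over the 5 pairs whose HAB array had a low choroid plexus level, a setting chosen after the data were seen. Then 421 genes (2.44%) were higher in PFC, 390 of them among the 429, and 502 (2.91%) were higher in HAB, 461 of them among the 553. In the choroid plexus list, 9 of 13 genes were called higher in HAB over 12 pairs and 5 of 13 over the 5, and the median went from -1.72 to -0.22. F5, Slc4a5 and Prr32 were among the 5 called genes with the largest SD over the HAB arrays. Their differences went from -1.81 to -0.13, from -1.72 to -0.20 and from -1.49 to -0.11, and none of the 3 passed the adjusted limma p, at 0.233, 0.0799 and 0.326. Over all genes tested, 37 were at least 2-fold higher on the 7 HAB arrays than on the 5, and 21 of these were called higher in HAB. Of the 553, 92 were not called over the 5 pairs, and 14 of those 92 were among the 21.

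Ciliated ependymal cells, which line the ventricle, gave 6 of 9 markers higher in HAB and a median of -1.34. Tmem212 was at -2.55, Ak7 at -2.11, Dynlrb2 at -1.77 and Foxj1, the factor that drives motile cilia, at -1.34. Hydin, also called, was at -1.53, but its other row was at -0.29, and the mean of its rows was not called. Over the 5 pairs of low choroid plexus level the median was -1.30 and 5 of 9 were called, with Cfap126, a gene of motile cilia, going from -1.29 to -0.998. Markers of the pineal gland, which lies behind the habenula, gave 0 of 6 calls and a median of 0.09.

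Markers of the other 2 dissected tissues separated PFC from HAB little. Of 9 striatal markers, Drd1 alone was called, higher in PFC, and the median was 0.25. Of 13 markers of midbrain dopamine neurons, Nr4a2 at -1.83 and Aldh1a1 at -1.69 were called higher in HAB and the median was -0.22; Th, the rate-limiting enzyme of dopamine synthesis, was at -0.18, and the dopamine transporter gene Slc6a3 at 0.06, neither called.

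Glial genes were counted in the same way. Of 14 astrocyte genes 3 were higher in HAB, with a median of -0.65: Agt, the angiotensinogen gene, at -2.40, the filament protein Gfap at -1.40 and Fabp7 at -1.13. Agt ran from 5.98 to 7.16 with a median of 6.76 on the PFC arrays and from 8.90 to 9.26 with a median of 9.15 on the HAB arrays, and its mean was highest in SN/VTA, at 10.22. Of 11 oligodendrocyte genes, Mag at -1.13 and Cnp at -1.12 were higher in HAB and the median was -0.60; over the 5 pairs 0 of 11 were called and the median was -0.41. Of 11 microglia genes 0 were called, although 10 of 11 lay above 0 and the median was 0.33. Of 9 endothelial genes 0 were called, with a median of -0.06.

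**Figure D4:**
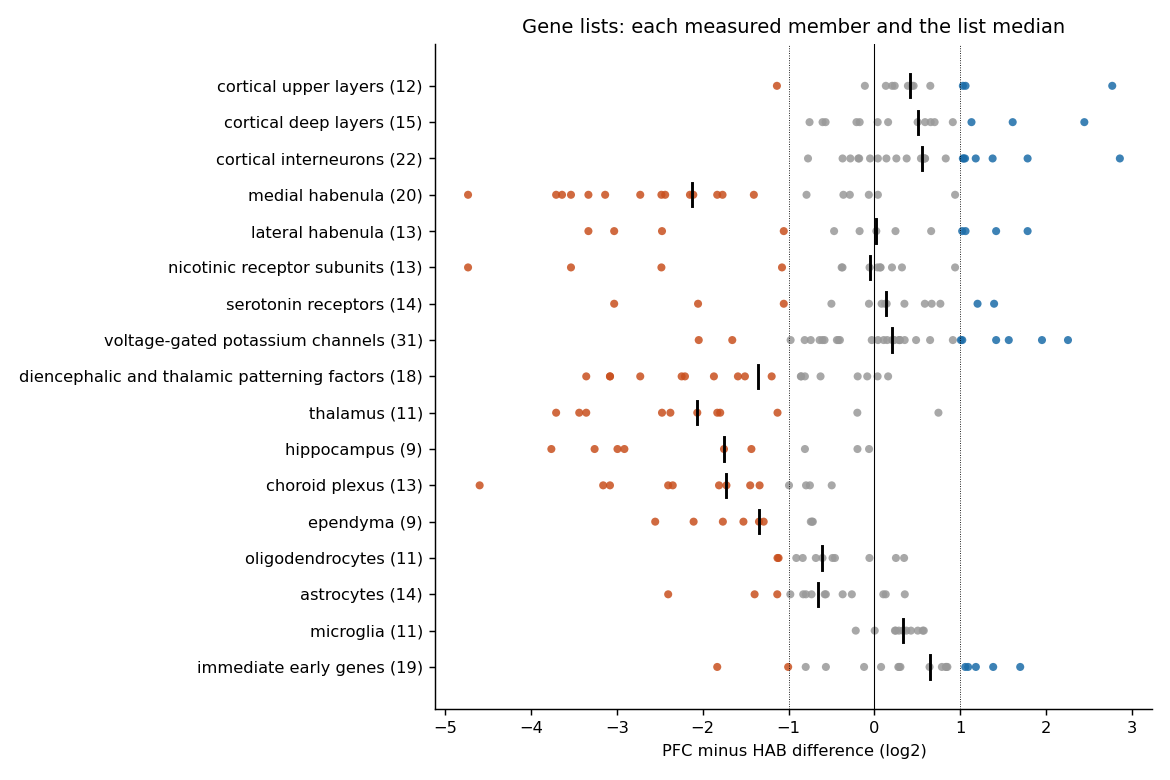
Each row is a gene list with the number of measured members in parentheses, each point 1 member's PFC minus HAB difference (log2), and the black bar the list median; blue members were called higher in PFC, orange ones higher in HAB and grey ones were not called. The medial habenula (-2.13), thalamus (-2.06), hippocampus (-1.75), choroid plexus (-1.72), diencephalic and thalamic patterning (-1.35) and ependyma (-1.34) medians lie left of the left 2-fold line. No list shown has its median right of the right one.

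Short RNAs of the nucleolus held several of the largest differences. They were passed over by the rule for named genes and are given here after their values were seen. Of 71 small nucleolar RNAs tested, which guide the chemical modification of ribosomal RNA, 29 were higher in PFC and 3 higher in HAB, with a median of 0.70. The counts were 31 and 2 over the 5 pairs of low choroid plexus level. Snord110 ran from 11.02 to 11.32 with a median of 11.22 on the PFC arrays and from 5.33 to 6.07 with a median of 5.72 on the HAB arrays. That is a difference of 5.49 ± 0.06 (SE), 44.9-fold, limma adjusted p = 2.65e-13, and STR and SN/VTA, at 5.92 and 6.42, were near HAB. Snord61 at 5.08, Snord58b at 5.05 and Snord22 at 4.78 behaved alike, and Rny1, a Y RNA, was at 3.14. These RNAs are shorter than most messenger RNAs, and any part of RNA isolation or labelling in their levels was not tested. The largest difference towards HAB of any gene was in the predicted gene Gm5741, at -5.30.

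Of 247 miRNA genes tested, 11 were higher in PFC and 15 higher in HAB. A row of this array does not tell the precursor from either mature arm. RefSeq mature sequences were found for 20 of the 26 called genes, and the 31 mature RNAs had 31 distinct seeds, so no seed was shared. The 5 below are examples chosen after their values were seen. Larger differences, such as Mir703 at 2.94 and Mir466h at -2.65, are not among them. Capitals mark the seed, bases 2 to 8 from the 5′ end.
miR-128-3p: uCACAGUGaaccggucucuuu
miR-9-5p: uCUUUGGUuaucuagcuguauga
miR-505-3p: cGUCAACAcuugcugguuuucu
miR-377-3p: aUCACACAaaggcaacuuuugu
miR-1912-3p: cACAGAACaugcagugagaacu

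Mir128-1 was higher in PFC at 1.82 ± 0.07 (SE). It lies within R3hdm1, which was itself called higher in PFC at 1.12. Mir9-2, of a family abundant in neural progenitors and neurons, was higher in PFC at 1.30. Mir505 at -2.35 and Mir377 at -1.69 were higher in HAB. The STR mean of Mir505, 8.91, was close to its HAB mean of 8.95, and that of Mir377, 8.90, was above its HAB mean of 7.77. Mir1912 lies within Htr2c and was higher in HAB at -2.04. It moved between the 2 sets of HAB arrays as Htr2c did: its mean was 8.79 on the 7 arrays of high choroid plexus level and 7.37 on the 5, where Htr2c had 9.69 and 8.82. Of the 26 called miRNA genes, 18 lay within a tested gene, and for 2 of them, Mir128-1 and Mir1912, that gene was called in the same direction.

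The difference between PFC and HAB was followed across the day. Its range over the 6 times had a median of 0.34 over all genes tested. A 24-h rhythm of the difference, tested with a cosine and a sine in limma, was called for 0 of 17274 genes (0.00%). At an unadjusted p under 0.05 there were 1070 (6.19%), and the smallest adjusted p was 0.146. The difference between dark and light times was called for 0 genes (0.00%), with 831 (4.81%) at an unadjusted p under 0.05 and a smallest adjusted p of 0.598. With 12 pairs, only large differences between the rhythms of the tissues could pass.

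Curves with a 24-h period were fitted to the clock genes in each tissue. Ciart, a repressor of the clock, had a fitted amplitude of 0.66 in PFC and 0.64 in HAB, mean to peak on the log2 scale, with peaks at ZT 10.97 and 11.47. Arntl, the activator that pairs with Clock, had 0.42 and 0.33, with peaks at ZT 23.97 and 23.80, about opposite in phase to Ciart. The adjusted limma p of the rhythm was 9.55e-04 in PFC and 0.0324 in HAB for Ciart, and 0.00667 and 0.106 for Arntl, which thus passed the threshold in PFC alone; the difference between the tissues was not called for either. Per3, a further repressor, had 0.29 and 0.28, and the rhythm of its difference between tissues had an adjusted limma p of 0.998.

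Nr1d1, the repressor of Arntl also called Rev-erb alpha, came nearest among clock genes to a difference in rhythm. Its mean at ZT 3, 7, 11, 15, 19 and 23 was 9.29, 9.96, 10.19, 9.59, 9.06 and 8.91 in PFC and 9.49, 9.90, 9.66, 9.25, 8.90 and 9.20 in HAB. PFC was the higher tissue at ZT 11 and HAB at ZT 3 and ZT 23, and the fitted peaks were at ZT 9.97 and 7.54. The rhythm of the difference had an amplitude of 0.39, an unadjusted limma p of 2.40e-04 and an adjusted p of 0.407. Dbp, a clock output factor, had its peak at ZT 12.80 in PFC and 10.98 in HAB, with an amplitude of the difference of 0.30 and an adjusted limma p of 0.667. Neither difference passed the test.

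**Figure D5:**
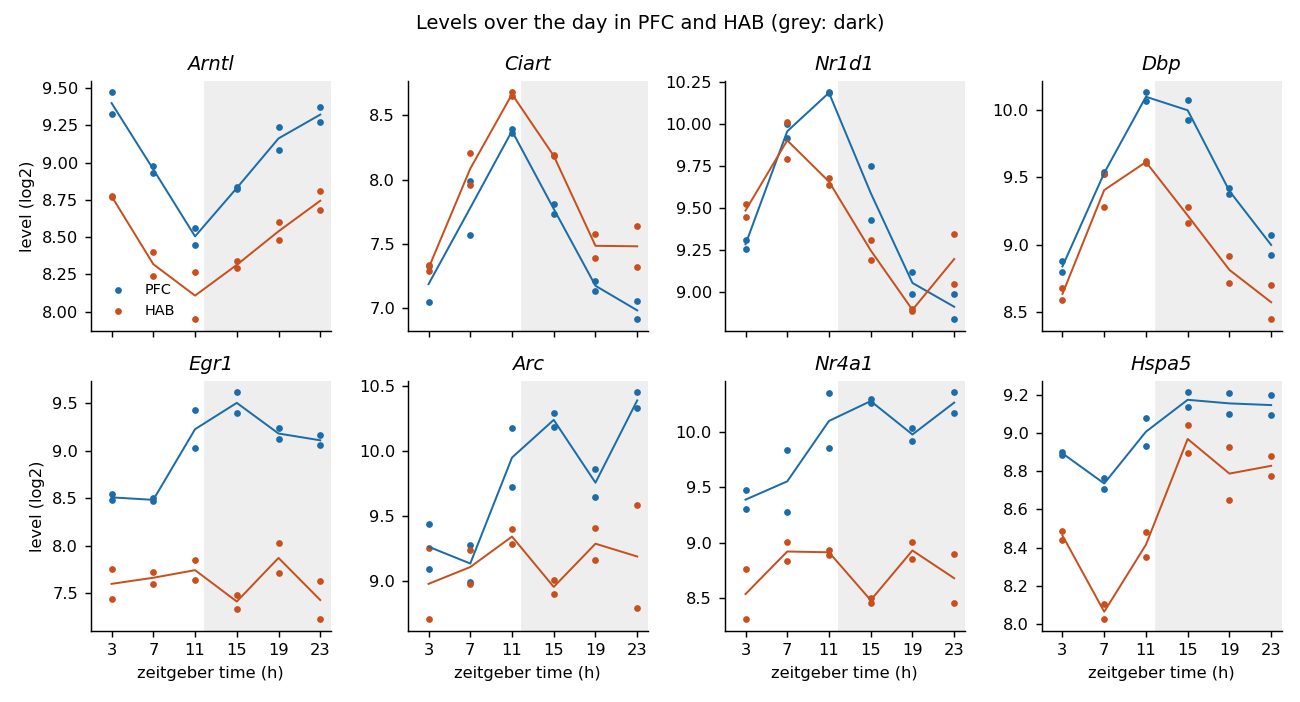
Each panel shows the level (log2) of 1 gene at the 6 Zeitgeber times (h) in PFC (blue) and HAB (orange); points are arrays, lines join the means of 2 arrays, and grey marks the dark. Arntl, Ciart, Nr1d1 and Dbp rise and fall in both tissues, while Egr1, Arc and Nr4a1 are higher at later times in PFC and have no such course in HAB; none of these differences between the tissues passed the adjusted test.

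The mean level of clock genes also differed a little between the tissues. Among 5 clock activators Rorb alone was called, at 1.06; Npas2, at 0.91, and Clock, at 0.76, were higher in PFC by less than 2-fold, and Rora was at -0.74. Of 9 clock repressors 0 were called and the median was 0.06. Of 6 clock output genes and kinases 0 were called and the median was -0.02.

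Immediate early genes are switched on in neurons after activity. Of 19 measured, 5 were called higher in PFC, 2 were called higher in HAB and 12 were not called, with a median of 0.64. Homer1 was at 1.70, Egr1 at 1.39, Nr4a1 at 1.18, Npas4 at 1.09 and Fos at 1.06. Of the 2 higher in HAB, Nr4a2 at -1.83 is also a marker of the medial habenula, and Nptx2 at -1.004 fell just under 2-fold without ZT 7, 19 or 23 of replicate 1 or ZT 11 of replicate 2, at -0.97 to -0.99. Egr1 ran from 8.47 to 9.62 with a median of 9.09 on the PFC arrays and from 7.22 to 8.03 with a median of 7.63 on the HAB arrays, so the tissues did not overlap. Its PFC means were 8.51, 8.48, 9.23, 9.51, 9.18 and 9.11 from ZT 3 to ZT 23, and its HAB means 7.60, 7.66, 7.74, 7.41, 7.87 and 7.43. The PFC minus HAB difference of Egr1 was 0.62 larger in the dark than in the light, with an adjusted limma p of 0.598. Arc, Nr4a1 and Homer1 had differences between dark and light of 0.68, 0.59 and 0.48, each with an adjusted limma p of 0.999.

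Of the chaperones of the endoplasmic reticulum, 1 of 13 was called, Sdf2l1, higher in HAB at -1.06, and the list median was -0.02. Over the 5 pairs of low choroid plexus level 0 were called higher in HAB and 1 higher in PFC. Hspa5, the major chaperone of the list, was higher in PFC by 0.43. It fell at ZT 7 in both tissues, to 8.74 in PFC and 8.06 in HAB. Glucocorticoid-responsive genes gave 0 of 14 calls and a median of -0.07.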

How the data were processed

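RNA of 12 PFC and 12 HAB pools was measured on Affymetrix Mouse Gene 2.0 ST arrays after WT Pico labelling, per the labels. The deposited values were taken as log2 levels per row, since they ran from 1.09 to 13.65 over the 48 arrays; how background and scale were set is not given in the sources used here. Each of the 48 columns was matched to its sample by name. Of 41345 rows, 23521 carried a single gene symbol in the platform annotation; 1814 rows with several symbols and 16010 rows it does not list were not used. The RefSeq gene table held the Entrez identifier of 23328 rows and changed 0 symbols. The row of highest mean was taken for the 1082 genes with several rows, which left 22180 genes, and the 17274 whose mean reached the 30th percentile of rows (5.05) were tested.

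Tests used limma 3.58.1 (lmFit, eBayes) and data.table (version 1.17.8) in R 4.3.3, on the 12 PFC minus HAB differences with a mean for each of the 6 times (6 residual degrees of freedom). The rhythm of the difference was the joint test of a 24-h cosine and sine (9 residual degrees of freedom), and dark against light was a contrast of the time means. The rhythm within a tissue used the 12 arrays of that tissue. Fits over the 5 or the 7 pairs split by choroid plexus level had no term for time. All tests were two-sided, with Benjamini-Hochberg adjustment over the genes tested and a threshold of 0.05. Python 3.11.15 was used for the figures (matplotlib 3.10.9) and for the sequences (pandas 2.3.3). The test code was tested on simulated data. The number of arrays limits the precision.

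Replicate numbers marked the 24-h cycle, per the labels, which do not say whether PFC and HAB pools came from the same mice. Deviations of same-numbered arrays from their group means correlated with r from -0.05 to 0.10 over 6 pairs, and 0 of 6 were above 0.1.

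The 24 genes named first were the 12 highest and 12 lowest differences among called genes of one direction in 12 of 12 pairs. The rule skips predicted genes, short RNAs, odour and pheromone receptors, and segments of immune receptors. The text also names members of 44 gene lists and the 5 called genes with the largest SD over HAB arrays. The comparison, the lists and the tests were chosen with earlier results of these data known. Of the names in the lists, 465 were tested, 15 lay below the filter, 14 lay on rows with several symbols, and 38 had no row with 1 symbol and were not analysed here. Alternatives covered the pairing, the scaling, the filter, the choice of row, the choroid plexus level and leaving out each pair. Promoters and miRNAs came from RefSeq tables (promoters of build GRCm38.p6), matched by symbol.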

Additional observations from a re-analysis of the deposited data

How the results depend on the processing

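The number of genes higher in PFC ran from 397 to 458 and that higher in HAB from 491 to 632 over 26 other settings, against 429 and 553, and each stayed within 1.5 times. Leaving out 1 pair at a time gave 416 to 441 and 536 to 581. The fit without the replicate block, that is, with no pairing of the arrays, called 429 and 553, and the 24-h cycle as a replicate block also gave 429 and 553. Neither setting changes the mean difference of a gene, so with the 2-fold limit these counts could hardly move. The same holds for some others of the 26 settings, such as the fit with no time term and that of all 48 arrays. The 24 genes named first by the rule, which passes over predicted genes and short RNAs, kept their call in all 624 checks. They were picked from these same data for the largest differences, so this result was largely set by the choice. Of 4976 checks of 192 called genes of the lists, the rule and the short RNAs, 89 (in 37 genes) fell short of the threshold and 0 changed direction. These 192 had already passed the 2-fold limit in these same data, so a change of direction was unlikely from the start. The rhythm of the difference was called for 0 genes, but for 1, Fam189b (limma adjusted p = 0.0330), with no pairing; leaving out 1 pair gave 0 to 2, the 2 being Gm4988 and Mir101c (limma adjusted p = 0.0217 for both) without ZT 11 of replicate 1. The cause was not tested. The difference between dark and light was called for 0 genes (0 to 0 with 1 pair left out). Leaving out both pairs of ZT 15, the only time at which both HAB arrays had a high choroid plexus level, gave 0 genes for the rhythm; this setting and the splits by choroid plexus level into 5 and 7 pairs were chosen after the data were seen. Over the 7 pairs of high level, 445 and 632 genes were called. No sample could be judged as an outlier among groups of 2 arrays.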

Other observations

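Genes of mature oligodendrocytes stood out among the lists for the course of their PFC minus HAB difference over the day. Of 11 measured, 7 had an unadjusted limma p under 0.05 for a 24-h rhythm of the difference, where 6.19% of all genes tested had one, and 0 passed the adjustment. The same count was 3 of 6 for clock output genes and kinases and 3 of 9 for clock repressors. It was 6 of 19 for immediate early genes and 4 of 13 for chaperones of the endoplasmic reticulum. Again 0 members of these lists passed the adjustment. Members of a list share cells and arrays, so these counts are a description. The mean level of the oligodendrocyte list ran from 9.21 to 10.06 over the HAB arrays and from 8.73 to 9.18 over the PFC arrays. The part of this spread in the courses was not tested.

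The miRNA gene Mir101c had the largest fitted rhythm of the difference among the genes with the smallest p, at an amplitude of 1.94 on the log2 scale with a peak at ZT 15.57. Its amplitude was 1.86 in PFC (limma adjusted p = 4.36e-04 within that tissue) and 0.08 in HAB (limma adjusted p = 0.992). The difference between the tissues had a limma adjusted p of 0.146. It was chosen after its values were seen.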
